A study of Mus musculus with 36 samples.

Results

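The surrogate light chain genes are *Vpreb1*, *Vpreb2*, *Vpreb3* and *Igll1*. They were taken by symbol from 3 RNA-seq tables, in which *Vpreb1* and *Vpreb2* also appear under the names *Vpreb1a* and *Vpreb1b*. All 4 genes were found in each table, among 46078, 35896 and 18721 rows, and all 4 passed the filter on low values in each, so that each was followed over 24 libraries. Pax5 ChIP–seq peaks at their loci were taken from 6 peak lists.

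The surrogate light chain stands in for the immunoglobulin light chain before a light chain gene has been rearranged. *Vpreb1* and *Vpreb2* encode the variable-like VpreB subunit, and *Igll1* encodes the constant-like subunit that is linked to the μ heavy chain. The complex sits with the signalling chains CD79a and CD79b at the surface as the pre-B cell receptor, which drives the expansion of large pre-B cells before the subunit genes are shut down. *Vpreb3* encodes a related protein that is kept in the endoplasmic reticulum and binds immunoglobulin chains there, and Pax5, EBF1 and E-proteins are the textbook activators of the family.

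In the mm10 build *Igll1* lies on chromosome 16 from 16860671 to 16863985 on the minus strand and has 3 exons in the transcript used here. *Vpreb1* lies next to it on the same strand, from 16868403 to 16870843, and *Vpreb2* lies further along the chromosome on the plus strand, from 17980428 to 17981273. *Vpreb3* is on chromosome 10, from 75943057 to 75949657 on the plus strand. Each of the *Vpreb* genes has 2 exons in the transcript used here. Start sites are those of these transcripts, at 16863985 for *Igll1*, 16869255 for *Vpreb1*, 17980428 for *Vpreb2* and 75948300 for *Vpreb3*, and for *Vpreb1* and *Vpreb3* longer gene models begin further upstream, so that their start sites lie inside the spans given. *Vpreb1* and *Vpreb2* are near-identical copies, since their transcripts were 97.4% identical over 759 aligned bases and 50.0% of the 31-base windows of *Vpreb1* occurred exactly in *Vpreb2*. At 150 bases, the length of a read, the share was 7.62%, so most read-length windows differ between the copies. Some reads could have been shared between them by the counting, and the single values of these genes are uncertain to that extent. The copies also resembled each other upstream, where 230 bases aligned at 93.5% identity. The sequences of the 250 bases before each start site, read from GRCm38.p6 on the strand of the gene, are shown because they are the part of the promoters that the copies share. The *Vpreb1* window overlaps an exon of a longer *Vpreb1* model, and the *Vpreb3* window printed after it lies in an intron of a longer *Vpreb3* model. Neither *Vpreb1* nor *Vpreb2* holds there the letters GCNTGAC, the core of a Pax5 motif, on either strand.

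Vpreb1 upstream, chr16:16869256-16869505 (minus strand): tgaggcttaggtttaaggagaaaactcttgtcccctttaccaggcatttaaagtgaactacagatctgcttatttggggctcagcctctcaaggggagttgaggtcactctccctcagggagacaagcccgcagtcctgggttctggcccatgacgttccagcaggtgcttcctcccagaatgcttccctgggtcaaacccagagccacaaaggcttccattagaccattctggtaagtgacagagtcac
Vpreb2 upstream, chr16:17980178-17980427 (plus strand): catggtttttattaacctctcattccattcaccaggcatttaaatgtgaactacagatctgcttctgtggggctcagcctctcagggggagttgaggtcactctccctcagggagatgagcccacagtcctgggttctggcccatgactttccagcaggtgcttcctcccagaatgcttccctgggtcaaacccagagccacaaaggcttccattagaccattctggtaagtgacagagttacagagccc

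The window upstream of *Vpreb3* and the summit of the strongest peak at *Igll1* each held 1 match to GCNTGAC, shown in capitals, which at *Igll1* is on the strand opposite to the printed one. These letters occurred in 8.79% of the 250-base windows upstream of all 32851 promoters and in 15.9% of 201-base windows at the 10639 summits of wild-type Pax5 replicate 1. The strongest peak at *Vpreb3*, just past the 3′ end of the gene, held none in its 201-base window. A match is a description of the letters, not of a bound site.

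Vpreb3 upstream, chr10:75948050-75948299 (plus strand): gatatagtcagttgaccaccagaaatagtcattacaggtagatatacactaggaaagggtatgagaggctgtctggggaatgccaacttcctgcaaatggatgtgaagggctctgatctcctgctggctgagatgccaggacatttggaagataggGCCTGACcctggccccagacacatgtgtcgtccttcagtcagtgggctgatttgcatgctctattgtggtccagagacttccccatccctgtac
Igll1 peak, just upstream of the start site, chr16:16864030-16864230 (minus strand): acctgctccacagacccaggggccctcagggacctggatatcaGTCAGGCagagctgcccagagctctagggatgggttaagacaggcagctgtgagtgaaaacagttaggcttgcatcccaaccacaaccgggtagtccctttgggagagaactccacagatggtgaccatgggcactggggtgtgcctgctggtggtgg
Vpreb3 peak, 1530 bases downstream of the start site, chr10:75949730-75949930 (plus strand): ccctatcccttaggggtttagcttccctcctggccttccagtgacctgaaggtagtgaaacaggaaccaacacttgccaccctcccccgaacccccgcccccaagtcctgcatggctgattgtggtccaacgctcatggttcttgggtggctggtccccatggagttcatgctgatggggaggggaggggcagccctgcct

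The first table was made from pro-B cells (IgM-CD43+) and pre-B cells (IgM-CD43-) sorted by surface markers from the bone marrow of 2 wild-type and 2 *Sirt7*-/- mice on the 129Sv background. SIRT7 is a nuclear deacetylase, and the *Sirt7*-/- mice carry a germline deletion, so all cells of the mouse lack it. The second table held *Pax5*-/- pro-B cells, fetal liver progenitors from C57BL/6 mice by the methods though the labels call them bone marrow cells, given by retrovirus an empty vector (EV), wild-type Pax5 (Pax5Wt), the acetyl-mimicking form K198Q or the form K198R that cannot be acetylated at that lysine. The third table compared cultured pro-B cells of both genotypes. Wild-type cells received EV, and *Sirt7*-/- cells received EV, Pax5Wt or K198R. Both kinds of culture were grown on stroma with IL-7, stem cell factor and FLT3 ligand. Each group had 2 libraries. In the *Pax5*-/- cells and the cultured cells, the labels do not say whether the 2 libraries came from separate mice, and p-values there measure the spread between these libraries only. In the sorted cells the source labels contradict the sample titles for 4 of the 8 libraries, and the titles, which match the column names, were used. Apart from the fetal liver cells, the study used adult mice of both sexes.

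*Sirt7* went with the labels in the sorted cells, and *Pax5* was higher with each Pax5 form than with EV in the *Pax5*-/- cells. Normalized counts of *Sirt7* were 2692 and 2533 in the wild-type pro-B libraries and 363.2 and 366.3 in the *Sirt7*-/- ones. Pre-B libraries gave 5613 and 5219 against 1066 and 820.8, so a transcript was still counted in the mutants. The log2 differences were -2.84 in pro-B cells (limma, Benjamini–Hochberg adjusted p = 0.00292) and -2.53 in pre-B cells (adjusted p = 0.00931). In the *Pax5*-/- cells *Pax5* was counted at 2201 and 2103 with EV, at 6458 and 6152 with Pax5Wt, at 8918 and 8963 with K198Q and at 21162 and 16609 with K198R. A *Pax5* transcript was thus still counted with EV. The tables give 1 value per gene, none for the deleted part alone, so this value does not check the deletion. The groups also received unequal amounts of *Pax5* transcript, with K198R above Pax5Wt by 1.57 on the log2 scale (adjusted p = 0.0029).

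The order of the transcripts per kilobase in sorted wild-type pro-B cells was *Vpreb3* first, then *Igll1*, *Vpreb1* and *Vpreb2*. The levels there were 62272 ± 3862 normalized counts per kb (SD, n = 2) for *Vpreb3*, 26423 ± 383 for *Igll1*, 21984 ± 1720 for *Vpreb1* and 3628 ± 114 for *Vpreb2*. The order was another in cultured wild-type cells with EV, where *Igll1* stood at 45956 ± 2889 normalized counts per kb, *Vpreb1* at 40346 ± 2292, *Vpreb3* at 21805 ± 1327 and *Vpreb2* at 10230 ± 1759. In *Pax5*-/- cells with EV, *Vpreb3* was the lowest of the 4 transcripts at 1237 ± 91 normalized counts per kb, below *Vpreb2* at 6037 ± 1285, *Vpreb1* at 10194 ± 1773 and *Igll1* at 13098 ± 2843. The lowest *Igll1* and the highest *Vpreb1* library of the *Pax5*-/- EV group overlapped, whereas in wild-type pro-B cells no library of 1 gene overlapped those of its neighbour in the order. The 3 tables were normalized separately, so that levels were not set across them.

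**Figure D1:**
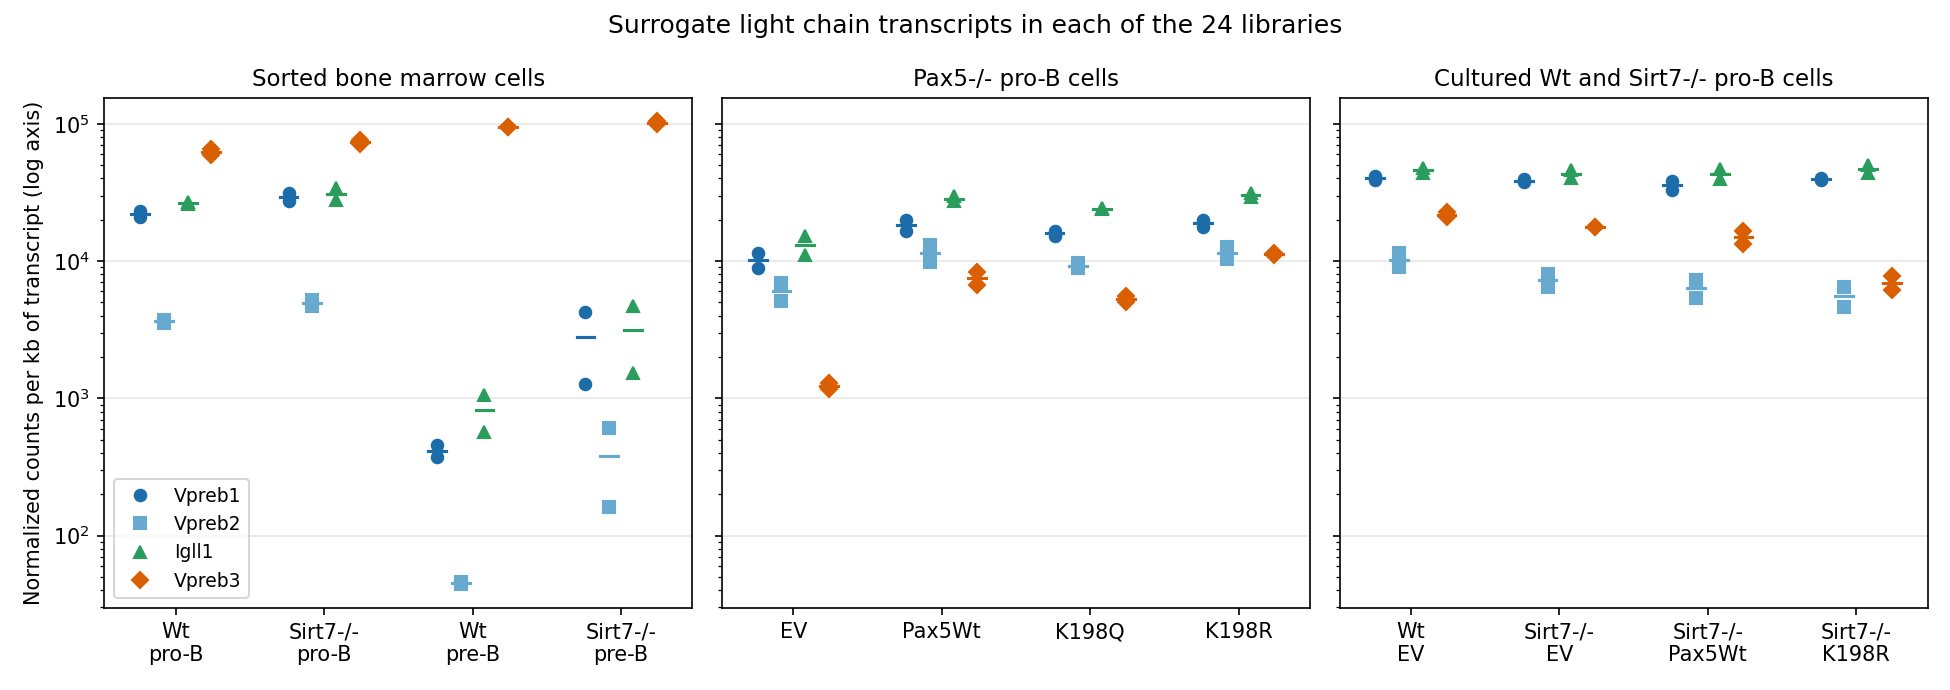
Level of each transcript in each of the 24 libraries, in normalized counts per kb of transcript on a log axis, for the 4 groups of each table. Points are libraries and bars are group means of 2. *Vpreb1*, *Vpreb2* and *Igll1* fell together from pro-B to pre-B cells while *Vpreb3* stayed high, and *Vpreb3* was lowest in *Pax5*-/- cells with EV.

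Between the pro-B and pre-B stages the genes of the VpreB and constant-like subunits fell steeply and *Vpreb3* rose. *Igll1* was counted at 23224 and 22753 normalized counts in the wild-type pro-B libraries and at 493.5 and 925.9 in the pre-B ones. *Vpreb1* went from 15908 and 17771 to 287.5 and 347.6. *Vpreb2* went from 2815 and 2692 to 33.5 and 35.0. The pro-B and pre-B libraries were far apart for these 3 genes, with no overlap. *Vpreb3* was counted at 37213 and 40626 in pro-B and at 58793 and 59416 in pre-B cells, again without overlap but in the other direction. Over all genes tested, the libraries of the stages did not overlap for 72.6% in wild-type and 69.8% in *Sirt7*-/- mice.

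The log2 fold changes in wild-type cells were -6.29 ± 0.53 (SE) for *Vpreb2*, -5.73 ± 0.48 for *Vpreb1* and -5.09 ± 0.51 for *Igll1*, or 78.2-fold, 53.0-fold and 34.0-fold lower in pre-B cells, with adjusted p-values of 0.000308, 0.000317 and 0.000539. *Vpreb3* rose by 0.60 ± 0.08 on this scale, or 1.52-fold (adjusted p = 0.00131). The SE values rest on a spread shared by all 4 sorted groups, the *Sirt7*-/- ones included. All 4 genes passed the test, against 40.2% of the 17649 genes tested, of which 22.0% were lower and 18.1% higher in pre-B cells. In these sorted populations fewer cells that express a gene and less RNA per cell cannot be told apart. In *Sirt7*-/- cells all 4 passed again, against 35.7% of genes, 19.2% lower and 16.5% higher, with log2 fold changes of -3.99 for *Vpreb2*, -3.64 for *Vpreb1*, -3.52 for *Igll1* and 0.47 for *Vpreb3*, and adjusted p-values of 0.00205, 0.00209, 0.0029 and 0.0049. The wild-type and *Sirt7*-/- changes were compared by the interaction of stage and genotype. It gave 2.30 ± 0.74 for *Vpreb2*, 2.09 ± 0.68 for *Vpreb1*, 1.56 ± 0.73 for *Igll1* and -0.14 ± 0.11 for *Vpreb3*, with adjusted p-values of 0.848, 0.848, 0.909 and 0.967, none of which passed. The interaction called 0.00567% of genes by limma, while 959 reached an unadjusted p under 0.05. It called 0 of the 4 genes by edgeR too, but *Vpreb1* and *Vpreb2* by DESeq2, among 104 of 15596 genes with an adjusted p. Without the first *Sirt7*-/- pre-B library, which leaves 1 in that group, limma gave an interaction of 3.25 for *Vpreb2* and 2.95 for *Vpreb1*.

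The partners and later products of the same step moved the other way in wild-type cells. All 3 pre-B cell receptor partners rose, with log2 fold changes of 1.74 for *Cd79b*, 1.18 for *Ighm* (the μ heavy chain) and 0.97 for *Cd79a*. Of the 5 conventional light chain genes, 4 rose, by 2.90 for *Iglc3*, 2.37 for *Iglc2* and 1.67 for *Iglc1*, which are close copies whose reads may be shared, and *Iglc4* from 0 and 2.80 to 40.8 and 25.1 normalized counts, while *Igkc* differed by -0.66 and did not pass. Of 14 proximal signalling genes 9 rose and 2 fell, with *Bank1* at 3.42 and the kinase genes *Lyn* and *Syk* at 1.55 each, against -3.20 for *Zap70*. Of 8 factors of the next stage 7 rose, among them *Spib* by 1.98, *Ikzf3* by 1.57 and *Bach2* by 0.83. Of 10 activators of the surrogate light chain genes 7 rose and 1, *Lef1*, fell by 2.05 on the log2 scale, with *Foxo1* at 1.09 and *Tcf12* at 0.90. The pre-B cell receptor ligand gene *Lgals1* fell by 0.98 on that scale. The 6 early pro-B markers had a median of -4.66, with 5 called lower, and all 18 cell cycle genes were called lower with a median of -1.69, beside a median of -0.04 over all genes tested. The 9 T cell markers had a median of -4.93, with 7 called lower, and summed to 5614 and 5704 normalized counts in pro-B and 3155 and 3025 in pre-B cells, most of it *Lck*. As 5 of them were at 0 in both pre-B libraries, that median depends on the pseudocount. All 8 immature and mature B markers rose, with a median of 2.50 and sums of 44139 and 50510 in pro-B and 301039 and 185658 in pre-B cells. The 5 plasma cell markers, 2 called lower and 1 higher, summed to 25901 and 65235 in pro-B and 8960 and 9561 in pre-B cells, with *Jchain* at 20006 and 57036 in the pro-B libraries and *Igkc* beside it at 234972 and 550267. The 7 myeloid markers had a median of -2.05 with 2 lower and 1 higher, and summed to 33542 and 24478 in pro-B, led by *S100a9*, and 15197 and 14871 in pre-B cells. The 5 erythroid markers had a median of -1.57 with 1 lower, and summed to 14717 and 10881, led by *Hba-a1*, and 5099 and 7663. The 5 NK cell markers had a median of -2.04 with 0 called, and summed to 550.6 and 475.5, led by *Nkg7*, and 359.7 and 190.2. The part of these markers in the change of the 4 genes was not tested. *Dntt*, the terminal transferase gene, fell by 7.30.

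Loss of *Sirt7* went with higher values of the 3 falling genes in pre-B cells, but none of the 4 genes passed the test there. *Igll1* was counted at 1324 and 4122 normalized counts in *Sirt7*-/- pre-B cells, against 493.5 and 925.9 in wild-type pre-B cells. *Vpreb1* was counted at 981.9 and 3268, against 287.5 and 347.6. *Vpreb2* was counted at 122.6 and 458.3, against 33.5 and 35.0. For each of these 3 genes both *Sirt7*-/- libraries lay above both wild-type libraries, and the second *Sirt7*-/- library was well above the first. The log2 differences were 2.76 ± 0.53 for *Vpreb2*, 2.50 ± 0.48 for *Vpreb1* and 1.79 ± 0.51 for *Igll1*, with adjusted p-values of 0.126, 0.132 and 0.221 and 95% confidence intervals of 1.51 to 4.01, 1.35 to 3.65 and 0.57 to 3.01. *Vpreb3* differed by 0.10 ± 0.08 (adjusted p = 0.6), from 58793 and 59416 in wild-type to 65265 and 61886 in *Sirt7*-/- pre-B cells. With limma 0 of the 4 were called, against 0.0850% of genes tested, although 3 of the 4 and 2405 genes in all had an unadjusted p under 0.05. Among all genes tested, 41.4% had no overlap between the pre-B libraries of the genotypes. The count depended on the test and on the library, since edgeR on the reads recovered from the table called 0 of the 4 and 5 genes in all, and DESeq2 called 3 of the 4 and 728 genes in all, against 15 genes by limma. Without the first *Sirt7*-/- pre-B library the differences were 3.71 for *Vpreb2*, 3.37 for *Vpreb1* and 2.61 for *Igll1* and all 3 passed, among 177 of 17649 genes. There the SE for *Vpreb2* fell from 0.53 to 0.15, and the 1 library left in the arm is assumed to vary like the other groups, which alone gave the spread, so that this pass is no check of the difference between the mutant replicates. Without the second library the differences were 1.81, 1.63 and 0.97, again with 1 mutant library left and the spread taken from the other groups.

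The second *Sirt7*-/- pre-B library also stood apart in other genes. *Dntt* was counted there at 3838 normalized counts, against 423.3 in the first *Sirt7*-/- library and 130.7 and 157.4 in the wild-type ones. The ETS factor gene *Erg* was counted at 650.4 and 1646 in *Sirt7*-/- and at 347.1 and 148.7 in wild-type pre-B cells. The growth factor receptor gene *Kit* was counted at 20.3 and 290.8 against 37.6 and 78.7. The 6 early pro-B markers summed to 10092 and 16561 in the *Sirt7*-/- and 8761 and 9552 in the wild-type libraries. None was at 0 in any library, and *Spn* was the most abundant. All 6 were above 0 in log2 difference, with a median of 1.25 beside 0.02 over all genes, and 0 were called. The 18 cell cycle genes summed to 163095 and 237982 in *Sirt7*-/- and to 118502 and 162215 in wild-type pre-B cells. *Mki67* was the most abundant of them, all 18 lay above 0, the median difference was 0.55 and 0 were called. The 5 erythroid markers summed to 7682 and 64714 in *Sirt7*-/- and to 5099 and 7663 in wild-type pre-B cells, with *Hba-a1* the most abundant, all 5 above 0 in difference, a median of 1.74 and 0 called. None of the cell cycle genes or erythroid markers was listed at 0 in these libraries. The part of these marker genes in the higher *Igll1*, *Vpreb1* and *Vpreb2* values was not tested. Markers of other cells and stages also differed without passing. The 8 immature and mature B markers were all above 0 with a median of 0.46 and sums of 436846 and 286877 in *Sirt7*-/- against 301039 and 185658 in wild-type cells, with none at 0 and *Cd74* or *Ighd* the most abundant. The 5 NK cell markers had a median of 1.48, 4 above 0, and sums of 156.7 and 695.4 against 359.7 and 190.2, with *Klrb1c* the most abundant and *Ncr1* at 0 in all but the second *Sirt7*-/- library. The 9 T cell markers had a median of 0.51, 6 above 0, and sums of 3456 and 3624 against 3155 and 3025, nearly all of it *Lck*, with *Cd3e* and *Cd3g* at 0 in all 4 libraries. The 7 myeloid markers were all below 0 with a median of -1.43 and sums of 11498 and 10674 against 15197 and 14871, with none at 0 and *Itgam* the most abundant. Their part in the result was not tested either. The 10 activators had a median of -0.11 and the 3 pre-B cell receptor partners one of 0.05, with 0 called in these lists, and *Pax5* differed by -0.12 (adjusted p = 0.677).

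In pro-B cells the *Sirt7*-/- values of the 4 genes lay above the wild-type ones, but none of the 4 passed the test. *Igll1* was counted at 29529 and 24380 normalized counts in the *Sirt7*-/- and at 23224 and 22753 in the wild-type libraries. *Vpreb1* was counted at 24087 and 20812 against 15908 and 17771, and *Vpreb2* at 3958 and 3600 against 2815 and 2692. *Vpreb3* was counted at 47778 and 44270 against 37213 and 40626. Both *Sirt7*-/- libraries were above both wild-type libraries for all 4 genes, and 39.3% of all genes tested had no overlap in either direction. The log2 differences were 0.46 for *Vpreb2* (95% interval -0.79 to 1.70), 0.41 for *Vpreb1* (-0.73 to 1.56), 0.22 for *Igll1* (-1.0 to 1.44) and 0.24 for *Vpreb3* (0.06 to 0.43). These intervals rest on a spread shared by all 4 sorted groups, the pre-B ones included. For *Vpreb2* the replicates differed 3.74-fold in *Sirt7*-/- pre-B cells, but 1.10-fold in *Sirt7*-/- and 1.05-fold in wild-type pro-B cells. With limma 0 of the 4 were called, against 0.0623% of genes, and the adjusted p-values ran from 0.757 for *Vpreb3* to 0.997 for *Igll1*. At an unadjusted p under 0.05, 1 of the 4 and 1048 genes in all differed, and edgeR and DESeq2 also called 0 of the 4. The 6 early pro-B markers were all above 0 (median 0.39), as were the 5 NK cell markers (0.62), and none of the 7 myeloid markers was (-1.08). Of the 9 T cell markers 2 were above 0 (-0.46), and of the 18 cell cycle genes 7 (-0.02). None in these lists was called, while 1 of the 4 pre-B markers was called lower. The part of these markers in the values of the 4 genes was not tested.

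**Figure D2:**
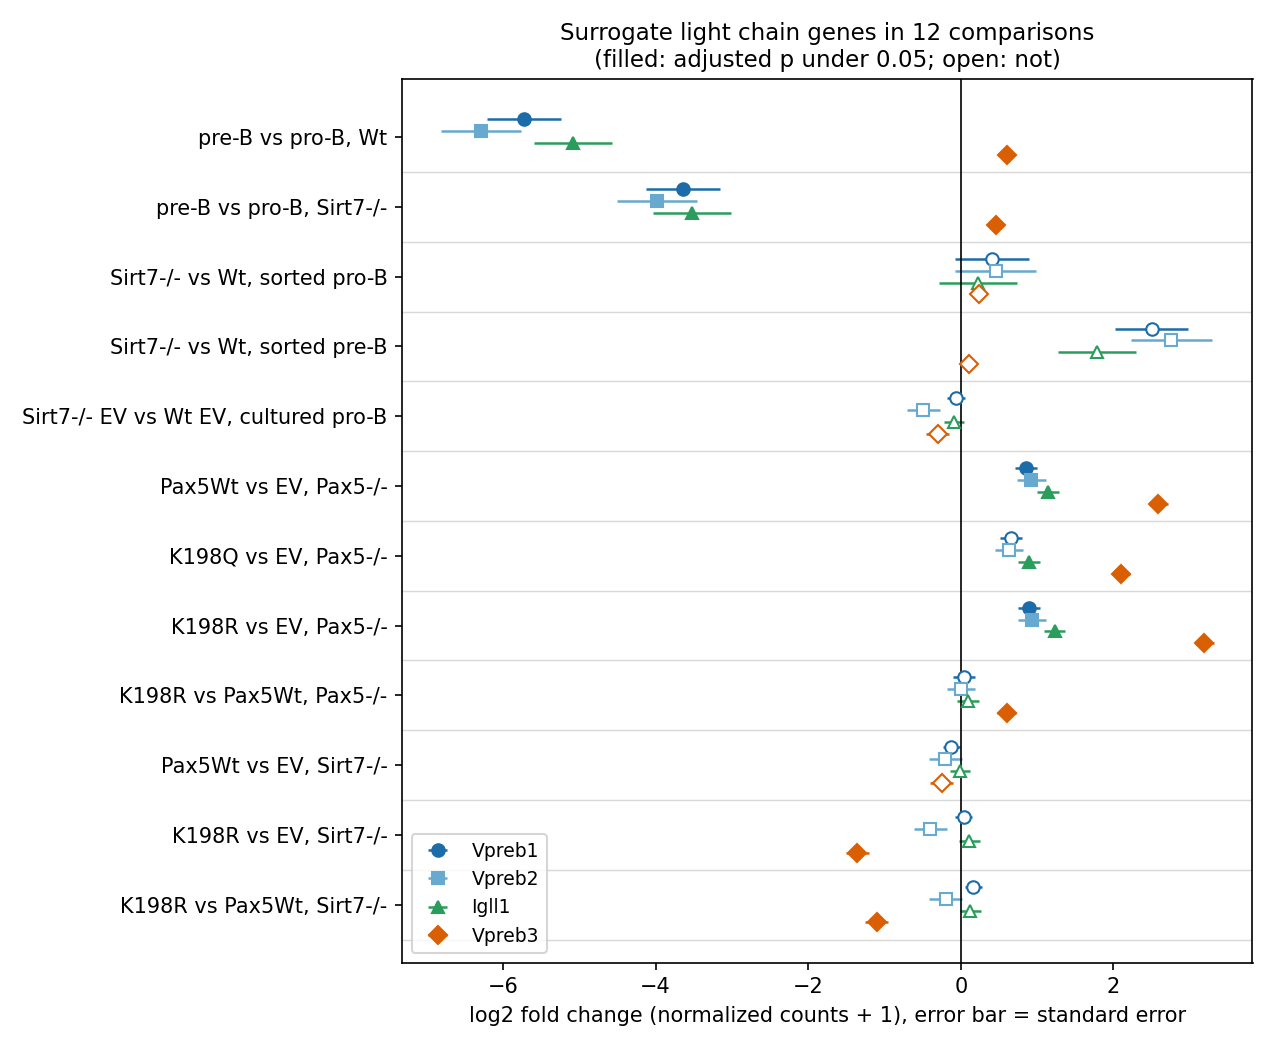
Log2 fold change of each gene in 12 comparisons, on the scale of log2(normalized counts + 1), with bars of 1 standard error from limma. Filled points passed an adjusted p of 0.05 and open points did not. *Vpreb3* lies on the opposite side of 0 from the other 3 genes in both pro-B to pre-B comparisons, and K198R lies above EV for *Vpreb3* in *Pax5*-/- cells and below it in *Sirt7*-/- cells.

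Giving wild-type Pax5 back to *Pax5*-/- cells raised *Vpreb3* most and the other 3 genes less. *Vpreb3* was counted at 733.2 and 813.2 normalized counts with EV, at 4163 and 5200 with Pax5Wt, at 3471 and 3158 with K198Q and at 7165 and 6959 with K198R. None of these 4 groups overlapped, and the order was EV, K198Q, Pax5Wt and K198R. *Igll1* was counted at 9646 and 13144 with EV, at 21101 and 20814 with K198Q, at 23881 and 25753 with Pax5Wt and at 25624 and 27194 with K198R, so that EV lay below all others and Pax5Wt overlapped K198R. *Vpreb1* was counted at 6849 and 8769 with EV, 11752 and 12759 with K198Q, 12726 and 15358 with Pax5Wt and 13616 and 15162 with K198R. *Vpreb2* was counted at 3893 and 5272 with EV, 6740 and 7318 with K198Q, 7498 and 9873 with Pax5Wt and 7839 and 9536 with K198R. For *Vpreb1* and *Vpreb2* the EV libraries lay below all others, and Pax5Wt and K198R overlapped. Over all genes the EV libraries did not overlap those with Pax5Wt, K198Q or K198R for 42.6%, 34.2% and 46.8%.

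With Pax5Wt, log2 fold changes over EV were 2.59 ± 0.12 for *Vpreb3* (6.02-fold, adjusted p = 0.000146), 1.14 ± 0.14 for *Igll1* (2.20-fold, adjusted p = 0.00662), 0.93 ± 0.18 for *Vpreb2* (1.90-fold, adjusted p = 0.0403) and 0.85 ± 0.14 for *Vpreb1* (1.80-fold, adjusted p = 0.0238). All 4 rose, whereas 2.25% of the 13345 genes tested were called higher and 3.25% in either direction. With K198Q, *Vpreb3* rose by 2.10 (4.28-fold, adjusted p = 0.000577) and *Igll1* by 0.90 (1.86-fold, adjusted p = 0.0342), and 2 of the 4 were called, against 0.869% of genes called higher and 0.922% in either direction. The differences of 0.66 for *Vpreb1* and 0.63 for *Vpreb2* with K198Q did not pass, with adjusted p-values of 0.127 and 0.315 and intervals of 0.32 to 1.0 and 0.20 to 1.06. With the replicate number as a block both passed (limma, adjusted p = 0.00335 for *Vpreb1* and 0.00789 for *Vpreb2*), so that 4 of the 4 genes were called, against 363 genes in all. With K198R all 4 rose, against 3.87% of genes called higher and 9.92% in either direction, by 3.19 for *Vpreb3* (9.13-fold, adjusted p = 1.68e-05), 1.23 for *Igll1*, 0.93 for *Vpreb2* and 0.89 for *Vpreb1*. The count of 4 for Pax5Wt became 2 without the first EV library, 3 without the second, 2 without the first Pax5Wt library and 1 without the second, while the calls over all genes fell from 434 to 128, 166, 116 and 89 in these fits. The count of 2 for K198Q became 1 without the first EV library or either K198Q library, when the calls over all genes fell from 123 to 51, 31 and 40. The count of 4 for K198R became 2 without the first EV library, with 561 calls over all genes in place of 1324. The *Vpreb2* call with K198R was also lost without the second K198R library (0.79, adjusted p = 0.0917) and with no variance trend (adjusted p = 0.0618).

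The forms were then set against each other. K198R exceeded K198Q for *Vpreb3* by 1.09 ± 0.12 on the log2 scale (2.13-fold, adjusted p = 0.00587), 1 of the 4 genes called against 1.45% of genes called higher and 5.01% in either direction, and this call was lost without the second K198Q library (1.02, adjusted p = 0.0667). K198R exceeded Pax5Wt for *Vpreb3* by 0.60 ± 0.12 (1.52-fold, adjusted p = 0.0496), against 0.772% of genes called higher and 2.87% in either direction, and this call was lost on leaving out each of the 4 libraries compared in turn, when the difference ran from 0.44 to 0.76. The *Pax5* transcript was also higher with K198R, above K198Q by 1.07 and above Pax5Wt by 1.57, and for K198Q against Pax5Wt it differed by 0.50, which did not pass (adjusted p = 0.558). Its part in the *Vpreb3* values was not tested. For K198Q against Pax5Wt 0 of the 4 were called, with -0.49 for *Vpreb3* (interval -0.78 to -0.20, adjusted p = 0.69), -0.29 for *Vpreb2*, -0.24 for *Igll1* and -0.19 for *Vpreb1*, while limma called 0.0225% of genes and 462 passed at an unadjusted p under 0.05. Between K198R and Pax5Wt the intervals were -0.24 to 0.42 for *Igll1*, -0.30 to 0.37 for *Vpreb1* and -0.42 to 0.43 for *Vpreb2*. Over all genes the libraries did not overlap for 43.1% between K198R and K198Q, 38.4% between K198R and Pax5Wt and 28.7% between K198Q and Pax5Wt. These comparisons share libraries and are not independent of each other.

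Other genes of the pathway stood beside them in the *Pax5*-/- cells, where 2.25%, 0.869% and 3.87% of all genes were called higher than EV with Pax5Wt, K198Q and K198R. With Pax5Wt, *Blnk*, the adaptor below the pre-B cell receptor, rose by 7.67 on the log2 scale, and 2 of 14 proximal signalling genes were called higher and 1 lower. Of the 3 pre-B cell receptor partners *Cd79a* rose by 1.90 and *Cd79b* by 0.46. Of the 10 activators 4 rose, namely *Lef1* by 1.73, *Pax5* itself by 1.55, *Ebf1* by 1.28 and *Foxo1* by 0.71. Of the 3 recombinase genes *Rag1* and *Rag2* rose, by 2.28 and 1.69, and 2 were called higher with K198Q and with K198R too. Of the 8 factors of the next stage 2 were called higher with Pax5Wt and 1 with K198Q. With K198Q 1 of the 3 partners rose (*Cd79a*, 1.21), 2 of the signalling genes, with *Blnk* at 6.67, and 3 of the activators (*Pax5*, 2.05, *Lef1*, 1.51, and *Ebf1*, 1.02). With K198R all 3 partners rose (*Cd79a*, 2.61, *Cd79b*, 0.83, and *Ighm*, 0.72), 5 of the signalling genes rose and 1 fell, with *Blnk* at 9.51, and 4 of the 8 factors of the next stage rose, with *Ikzf3* at 3.30, *Irf4* at 1.56 and *Spib* at 0.92.

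Markers of other cells differed too in the same *Pax5*-/- cells. With K198R against EV the 4 T cell markers tested had a median of -2.26 with 2 called lower, the 4 NK cell markers one of -1.92 with 1 lower and the 4 myeloid markers one of -2.01 with 2 lower and 1 higher, while 4 of the 5 B lineage markers were higher. With Pax5Wt the medians were -0.73, -0.80 and -1.51, with 0 T cell markers called, 1 NK cell marker lower, 1 myeloid marker higher and 4 of the 5 B lineage markers higher. With K198Q they were -0.47, -0.49 and -0.36 with 0 called, and 3 of the 5 B lineage markers were higher. The 5 NK cell markers summed to 521.6 and 626.6 normalized counts with EV, 323.4 and 348.8 with K198Q, 233.4 and 262.4 with Pax5Wt and 141.0 and 91.3 with K198R, most of it *Nkg7*, with *Ncr1* at 0 in all 8 libraries. The T cell markers summed to 2492 and 3209 with EV and to 1982 and 2633 with K198R, most of it *Lck*, with *Cd3e* at 0 in both EV libraries. The myeloid markers summed to 1011 and 729.0 with EV and to 655.4 and 408.0 with K198R, with *Itgam* the most abundant and *S100a8* and *S100a9* at 0 in these libraries. The plasma cell markers summed to 76370 and 74260 with EV, 57931 and 50161 with K198Q, 50349 and 43795 with Pax5Wt and 39075 and 31225 with K198R, most of it *Jchain*. Of the 3 tested, 1 was called lower with Pax5Wt and 1 with K198R, *Jchain* in both, at -0.76 and -1.19. The part of these markers in the values of the 4 genes was not tested.

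Among neighbouring genes, 3 on each side of each locus, the only gene called higher with Pax5Wt or K198R lay at the *Vpreb3* locus. *Chchd10*, a mitochondrial protein gene 5310 bases from *Vpreb3*, rose by 1.05 with Pax5Wt (adjusted p = 0.0055) and by 1.57 with K198R (adjusted p = 0.0005), and differed by 0.72 with K198Q (adjusted p = 0.0526). It was the only tested neighbour of any of the 4 genes called with Pax5Wt, and with K198R *Prodh* near *Vpreb2* was called as well, at -2.18. Near *Igll1* and *Vpreb1*, near *Vpreb2* and near *Vpreb3*, 4 neighbours each were tested here. Over all genes 3.25% were called in either direction with Pax5Wt and 9.92% with K198R. Between the wild-type pro-B and pre-B cells *Chchd10* rose by 0.32, *Ppm1f* (-1.04) near *Igll1*, *Slc25a1* (-1.22) near *Vpreb2* and 3 more neighbours fell, and *Top3b* was not called. Of the neighbours tested, 2 of 5 were called lower near *Igll1* and *Vpreb1* and 2 of 4 near *Vpreb2*. Near *Vpreb3* 1 of 5 was called lower and 1 higher. Over all genes tested, 22.0% were called lower and 18.1% higher.

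In cultured *Sirt7*-/- cells, which have their own *Pax5*, adding K198R went with lower *Vpreb3*. *Vpreb3* was counted at 14215 and 13042 normalized counts in wild-type cells with EV and at 11064 and 11029 in *Sirt7*-/- cells with EV. In *Sirt7*-/- cells it was counted at 8267 and 10419 with Pax5Wt and at 3822 and 4876 with K198R. The K198R libraries lay below all others and no 2 groups overlapped, as held for 34.6% of genes between the genotypes with EV and, against *Sirt7*-/- EV, for 38.7% with Pax5Wt and 49.6% with K198R, and for 37.7% between K198R and Pax5Wt. The K198R against EV difference was -1.36 ± 0.15 on the log2 scale (2.56-fold lower, adjusted p = 0.00569), 1 of the 4 genes called lower against 2.74% of the 13651 genes tested, or 4.83% called in either direction. It just missed the threshold without the first *Sirt7*-/- EV library (-1.35, adjusted p = 0.0501). Against Pax5Wt the difference was -1.10 ± 0.15 (2.15-fold lower, adjusted p = 0.0346), with 0.300% of genes called lower and 0.425% in either direction. This call was lost on leaving out each of the 4 libraries in turn, when the difference ran from -1.28 to -0.93. Pax5Wt differed from EV in *Vpreb3* by -0.25 (interval -0.60 to 0.10, adjusted p = 0.667).

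*Igll1* and *Vpreb1* had the highest group means per kb of the 4 genes in all cultured groups, and *Vpreb2* had the lowest. *Igll1* ran from 34300 to 43214 normalized counts and *Vpreb1* from 25281 to 32147 over the 8 libraries, with groups that overlapped in most comparisons. *Vpreb2* was counted at 8709 and 6821 in wild-type EV, 6094 and 4915 in *Sirt7*-/- EV, 5509 and 4098 with Pax5Wt and 4875 and 3527 with K198R, so that wild-type EV lay above the rest and the *Sirt7*-/- groups with EV and Pax5Wt overlapped. For K198R against EV the differences were -0.40 for *Vpreb2* (interval -0.90 to 0.10, adjusted p = 0.387), 0.11 for *Igll1* (-0.20 to 0.42) and 0.04 for *Vpreb1* (-0.22 to 0.30). With the replicate number as a block *Vpreb2* passed for K198R against EV (adjusted p = 0.0172) and for *Sirt7*-/- against wild-type EV (adjusted p = 0.0259). Without the block, for *Sirt7*-/- against wild-type EV the differences were -0.49 for *Vpreb2* (adjusted p = 0.52), -0.30 for *Vpreb3* (adjusted p = 0.621), -0.09 for *Igll1* and -0.06 for *Vpreb1*, and 0 of the 4 were called by limma, against 0.557% of genes, while 1322 passed at an unadjusted p under 0.05. *Sirt7* itself differed there by -1.60 (adjusted p = 0.0251). For Pax5Wt against EV 0 of the 4 were called, against 0.0366% of genes, while 1353 passed at an unadjusted p under 0.05. The *Pax5* transcript differed from *Sirt7*-/- EV by 0.47 with Pax5Wt (adjusted p = 0.426) and by 0.43 with K198R (adjusted p = 0.241).

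Beside the lower *Vpreb3* with K198R, few genes of the pathway passed. Of the 3 partners *Cd79a* rose by 0.57 (adjusted p = 0.022), and of the 14 signalling genes the kinase gene *Blk* fell by 1.81 on the log2 scale (adjusted p = 0.0194). None of the 10 activators was called, with a median of -0.23 and *Ebf1* at -0.34, beside 0.01 over all genes. *Chchd10* differed by -0.24 (adjusted p = 0.221). The immature and mature B markers moved with K198R, as 4 of the 7 tested rose and 1 fell with a median of 2.82, beside 4.83% of genes called in either direction, and *Ighd* was the most abundant. Their sum was 1566 and 1922 normalized counts in wild-type EV, 3266 and 4709 in *Sirt7*-/- EV, 7647 and 17775 with Pax5Wt and 15988 and 43773 with K198R. The T cell markers had 1 of 2 tested called lower, with sums of 2808 and 1616 with EV and 787.3 and 380.6 with K198R, most of it *Thy1*, and *Cd8a* was at 0 in both EV libraries. The plasma cell markers had 2 of 4 called lower, with sums of 4891 and 3844 against 5100 and 3991, most of it *Xbp1*. The myeloid markers had 1 of 2 called lower, with sums of 846.8 and 933.5 against 714.6 and 922.4, most of it *Itgam*. All 5 stroma markers tested were above 0 with 0 called, with sums of 2582 and 3950 against 3310 and 7273 and *Cxcl12* the most abundant. *Il2ra*, the IL-2 receptor α chain of pre-B cells, fell by 2.61 (adjusted p = 0.0196). The part of these markers in the *Vpreb3* values was not tested.

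Pax5 ChIP–seq in *Pax5*-/- cells expressing each form placed 14 peak regions within 10 kb of the 4 genes. Regions with a peak in both replicates numbered 7 for wild-type Pax5, 5 for K198Q and 7 for K198R. The replicate lists held 10639 and 11824 peaks for wild-type Pax5, 3747 and 3953 for K198Q and 12154 and 13990 for K198R, so the K198Q lists were the shortest. Of the 7 regions of wild-type Pax5, 5 had a peak in both K198Q replicates and 6 in both K198R replicates. Over the genome 29.6% of the 7908 wild-type peaks found in both replicates were in both K198Q lists and 78.4% in both K198R lists. These shares are of single replicate 1 peaks of any strength, whereas the regions join overlapping peaks. The regions were not matched for strength, and 2 of them ranked 18 and 37 among the 10639 peaks of wild-type replicate 1. With peak lists and no read counts, no test of these differences was made, and an exact test of 2 against 2 could not go below p = 0.33.

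The strongest region at *Igll1* covered 16863667 to 16864429 on chromosome 16, across the start site, with its summit just upstream, inside the sequence printed above. Its fold enrichment over input was 33.4 and 20.5 for wild-type Pax5, 14.7 and 25.1 for K198Q and 29.2 and 28.6 for K198R. It ranked 18 and 142 in the wild-type lists, 60 and 7 in the K198Q lists and 8 and 47 in the K198R lists. The wild-type replicates overlapped those of both other forms, while both K198R values lay above both K198Q values. A second region further upstream, from 16865182 to 16865802, had folds of 6.82 and 18.5 for wild-type Pax5, 7.99 and 6.96 for K198Q and 7.30 and 12.9 for K198R, again with overlap. The region past the 3′ end of *Vpreb3*, from 75949622 to 75950348 on chromosome 10, had folds of 27.8 and 12.5 for wild-type Pax5, 16.6 and 19.6 for K198Q and 12.2 and 19.98 for K198R, and ranked 37 and 806 in the wild-type lists, 31 and 15 in the shorter K198Q lists and 716 and 227 in the K198R lists. A peak at the *Vpreb3* start site was listed in wild-type replicate 1 (5.11) and K198R replicate 2 (4.96) only, and one from 75937940 to 75938245, upstream of the longer gene model too, in both wild-type replicates (5.57 and 7.61) and 1 K198R replicate (4.32). This last region overlaps an exon of the neighbouring gene *Gm867* and lies close to *Chchd10*, which spans 75933130 to 75937747.

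At the near-identical copies the peaks were lower than those across the *Igll1* start site and past the *Vpreb3* 3′ end. The region from 16870593 to 16871321 lies upstream of the *Vpreb1* start site used here and covers the first exon of longer *Vpreb1* models and of *Top3b*, a DNA topoisomerase gene on the other strand. It had folds of 11.4 and 9.04 for wild-type Pax5, 4.2 and 7.84 for K198Q and 6.94 and 11.7 for K198R. Upstream of *Vpreb2*, from 17978915 to 17979378, the folds were 7.96 and 3.57 for wild-type Pax5 and 4.98 and 7.73 for K198R, and K198Q had a peak in replicate 1 alone (4.82). Downstream of *Vpreb2*, from 17984374 to 17984789, the folds were 7.30 and 8.03, 6.43 and 5.89, and 6.05 and 5.98 for wild-type Pax5, K198Q and K198R. Directly upstream of *Vpreb2* both K198R replicates listed a peak (3.71 and 4.38) that no other list held, and directly upstream of *Vpreb1* wild-type replicate 1 alone did (6.36). Both windows overlap the stretch that the copies share, and alignments that fit several places had been removed by the authors' mapping quality filter.

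**Figure D3:**
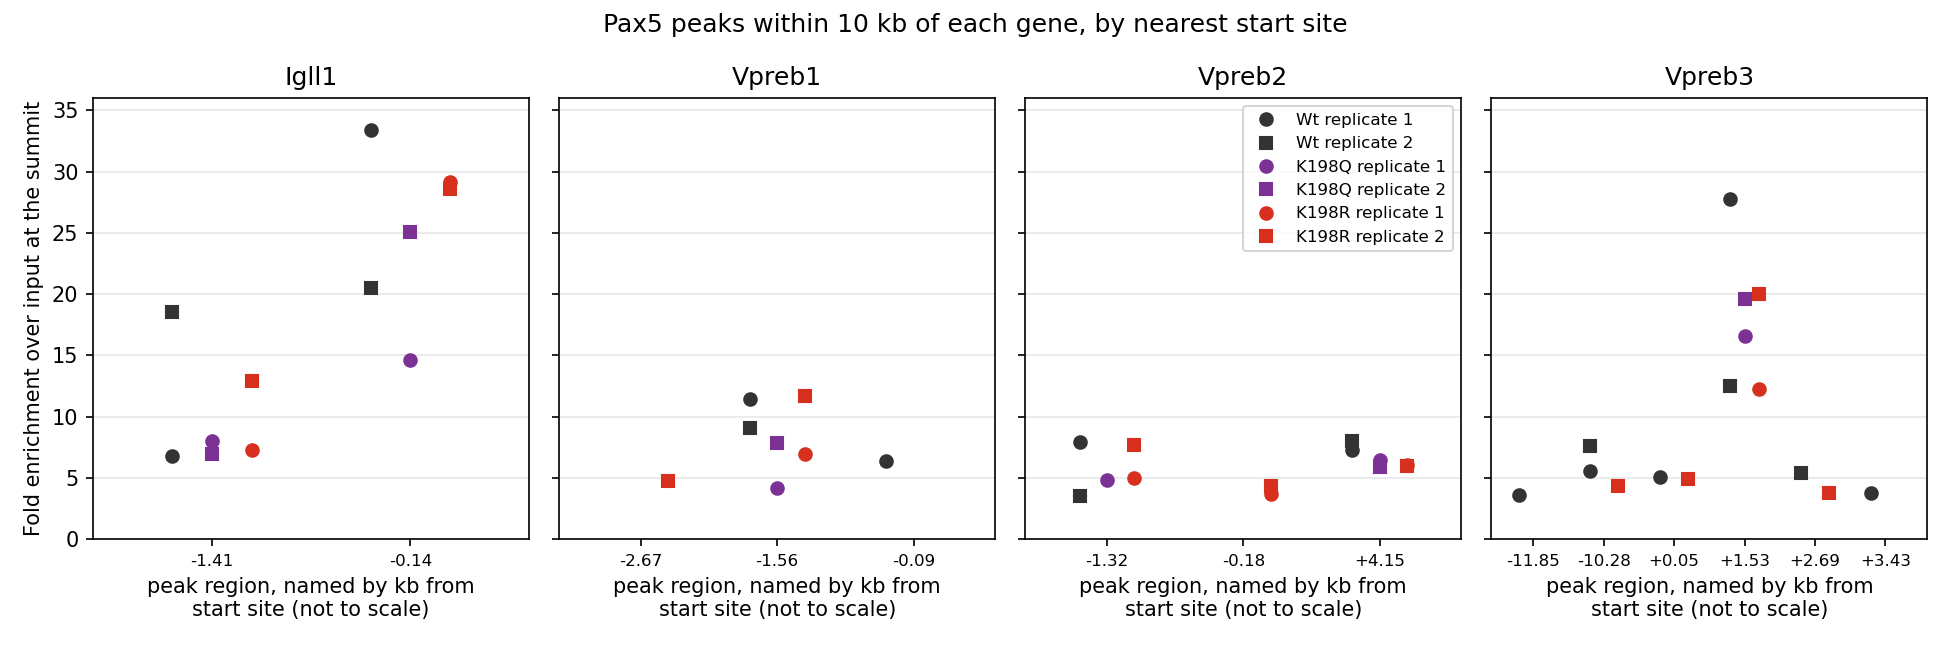
Fold enrichment over input at the summit for each peak region within 10 kb of each gene, by form of Pax5 and replicate, with regions named by the distance of the summit from the start site in kb and not drawn to scale. The highest peak per list and region is drawn. The regions near the *Igll1* start site and past the *Vpreb3* 3′ end hold the highest folds in all lists but wild-type replicate 2. In that list the second *Igll1* region (18.5) lies above the *Vpreb3* one (12.5). The wild-type replicates overlap those of both other forms near the *Igll1* start site and past the *Vpreb3* 3′ end.

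The ratio of *Vpreb1* to *Vpreb2* differed between the tables. It ran from 1.56 to 1.76 over the 8 *Pax5*-/- libraries, from 5.65 to 9.94 over the sorted cells and from 3.69 to 8.42 over the cultured cells. Within the sorted cells it was 5.65 and 6.60 in wild-type pro-B cells and 8.59 and 9.94 in wild-type pre-B cells. Within the cultured cells it was 3.69 and 4.35 in wild-type EV, 5.0 and 5.83 in *Sirt7*-/- EV, 5.28 and 6.17 with Pax5Wt and 6.36 and 8.42 with K198R. The *Pax5*-/- libraries lay below all others. Strain, cell source and genotype differ together between the *Pax5*-/- table and the other 2 and cannot be told apart, and how reads were shared between the copies was not tested.

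**Figure D4:**
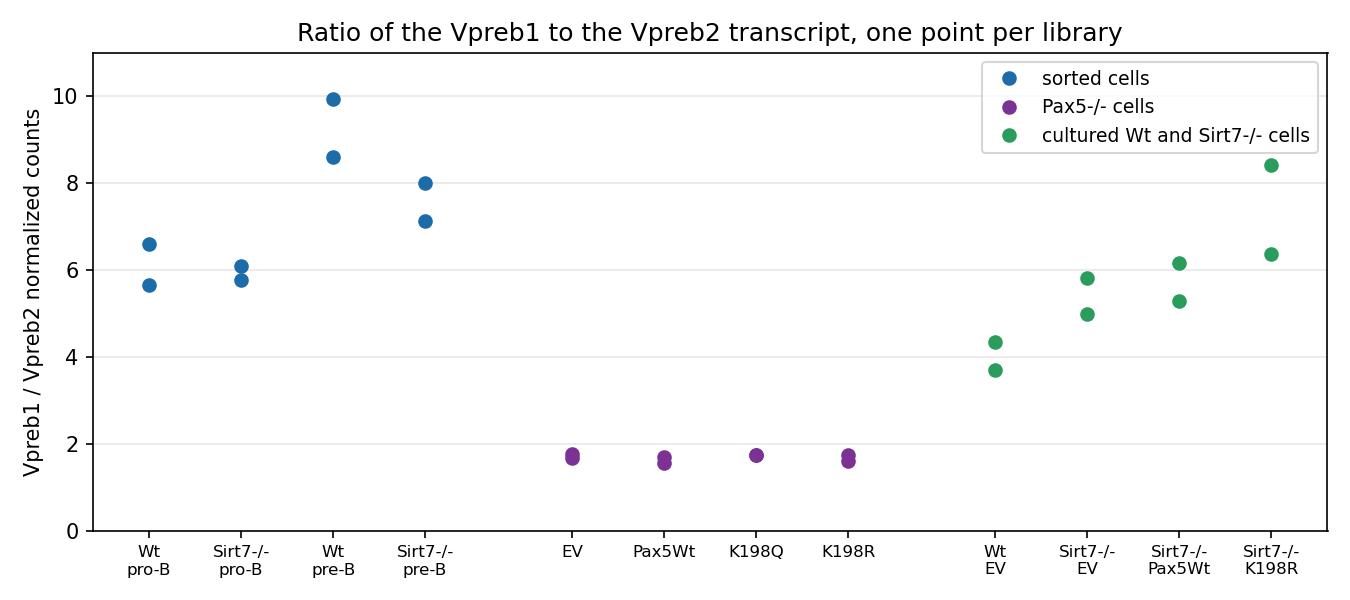
Ratio of *Vpreb1* to *Vpreb2* normalized counts, 1 point per library, for the 12 groups of 2 libraries. The 8 *Pax5*-/- libraries lie between 1.56 and 1.76, below the sorted and cultured libraries.

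Over the 24 libraries, the genes most like each member by Pearson's r of log2 values were sought among the 10577 genes tested in all 3 tables, as a description, since the points share tables that were normalized separately, stages and cell sources. *Igll1*, *Vpreb1* and *Vpreb2* were most like each other, with r of 0.991 for *Igll1* and *Vpreb1*, 0.982 for *Igll1* and *Vpreb2* and 0.992 for *Vpreb1* and *Vpreb2*. For the same pairs r was 0.994, 0.992 and 0.9995 within the sorted libraries and 0.986, 0.964 and 0.992 within the *Pax5*-/- ones. Within the cultured libraries it was lower, at 0.843, 0.476 and 0.580. Among the next for *Igll1* were the cell cycle factor gene *Mybl2* (0.980), *Smtn* (0.979) and *Zc3hav1l* (0.979). Among those for *Vpreb1* were *Erg* (0.981) and *Dyrk3* (0.978), and among those for *Vpreb2* were *Erg* (0.979), the chromatin assembly gene *Chaf1a* (0.975) and *D630045J12Rik* (0.974). *Vpreb3* had r between -0.045 and 0.004 with the other 3 over all libraries, which joins opposite relations within the tables. Over the 8 sorted libraries its r with them ran from -0.837 to -0.803. Over the 8 *Pax5*-/- libraries it was 0.973 with *Igll1*, 0.950 with *Vpreb1* and 0.919 with *Vpreb2*. Over the 8 cultured libraries it was -0.327, -0.114 and 0.650. Over all 24 libraries the nearest genes of *Vpreb3* were the scaffold gene *Akap12* (0.950), *Ebf1* (0.934), its neighbour *Chchd10* (0.923), *Dnase1* (0.919) and the IL-5 receptor gene *Il5ra* (0.917).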

How the data were processed

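The RNA values are a signal, normalized counts per gene, as deposited. By the methods, the authors made them with Salmon (selective alignment, GC correction, mm10), Tximeta sums per gene and DESeq2's median-of-ratios scaling. Libraries were stranded and poly(A)-selected per the labels. For sorted cells, 100% of values were whole multiples of 1 read within 0.01 read, which gave 50004827 to 55536608 reads per library. In the *Pax5*-/- and cultured libraries 1.67% to 2.33% of values above 0 were whole multiples of the smallest one. Whether all tables were counted and scaled alike is thus not known. Sums were 28865461 to 30520853 normalized counts in the *Pax5*-/- table and 27814214 to 30160880 in the cultured table, whose read depth was not recovered. The peak lists give, as deposited, a fold enrichment over input (a ratio) and −log10 p and q values, which the authors made with Bowtie2, removal of duplicates and of alignments of low mapping quality, and MACS2 per replicate. Peak names in the second K198R list carry another replicate number, and GEO's sample record was followed. The 6 input libraries were not used here.

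Genes that reached 10 normalized counts in 2 or more libraries of a table entered limma 3.58.1 (R 4.3.3) on log2(value + 1), with 4 groups in 1 fit per table and a variance trend. Adjusted p-values are Benjamini–Hochberg over all 17649, 13345 or 13651 genes tested, and a gene was called at an adjusted p under 0.05. Fold changes on the log2(value + 1) scale understate the change of low genes, as for *Vpreb2* in pre-B cells. With 2 libraries a group an exact permutation test cannot go below p = 0.33. Alternatives used edgeR 4.0.16 and DESeq2 1.42.0 on the recovered reads. On simulated data with 200 changed genes, the test recovered 84 of 100 changes of 2-fold and 100 of 100 of 4-fold for *Sirt7*-/- against wild-type pro-B cells, over 17181 genes, with 12 false calls. The simulation gave all genes the same dispersion and left low genes unchanged. It therefore does not give the power for genes whose replicates differ as much as those of *Vpreb2* in *Sirt7*-/- pre-B cells. Positions are from GENCODE M21, and levels per kb used the exon length of each gene's protein-coding transcript with the shortest span.

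Besides the 4 genes, *Sirt7* and *Pax5*, the text names the 2 to 4 genes of each pathway list with the largest changes, the 5 most alike genes and the neighbours, and some genes that this rule gives are not reported here. The genes and lists were chosen with earlier results of these data known. Pro-B and pre-B libraries of 1 number share a number in their descriptions, taken here as the mouse, and their replicate differences correlated with r of 0.156 in *Sirt7*-/- and 0.080 in wild-type mice. In the other tables same-numbered libraries had r of 0.264 to 0.383 (*Pax5*-/-) and 0.156 to 0.428 (cultured). The study made replicates on different days, and whether a number stands for a day across groups is not stated in the sources used here, so values with the number as a block are given where they change a call.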

Additional observations from a re-analysis of the deposited data

Results flagged for a closer look

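Some comparisons were made in more than 1 kind of cell, and for *Vpreb2* or *Vpreb3*, though not for *Igll1* or *Vpreb1*, the libraries of the groups lay fully apart in opposite directions. Of all genes tested in both tables this held for 14% of 11927 for K198R against EV (2 of the 4 genes here), 6.88% for K198R against Pax5Wt (1 of 4), 9.95% for Pax5Wt against EV (1 of 4) and 6.76% of 11182 for *Sirt7*-/- against wild-type pro-B cells (2 of 4). The tables were normalized separately, and none of these differences between the settings was tested. For *Vpreb3*, K198R against EV gave a log2 fold change of 3.19 in *Pax5*-/- cells and -1.36 in *Sirt7*-/- cells, whose own *Pax5* gene is intact. K198R against Pax5Wt gave 0.60 and -1.10 for the same gene, and Pax5Wt against EV gave 2.59 and -0.25. For *Vpreb2*, K198R against EV gave 0.93 in *Pax5*-/- and -0.40 in *Sirt7*-/- cells. *Sirt7*-/- against wild-type gave 0.46 for *Vpreb2* and 0.24 for *Vpreb3* in sorted pro-B cells, and -0.49 and -0.30 in cultured pro-B cells with EV. Of these values, the 3 of *Vpreb3* with K198R or Pax5Wt in *Pax5*-/- cells, the 2 of *Vpreb3* with K198R in *Sirt7*-/- cells and the *Vpreb2* value with K198R in *Pax5*-/- cells passed limma's test within their own table. With the replicate number as a block, 2 more *Vpreb2* values in cultured cells passed. These were K198R against EV in *Sirt7*-/- cells (limma, adjusted p = 0.0172) and *Sirt7*-/- against wild-type EV (adjusted p = 0.0259). The tables differ in several respects at once, among them cell source, culture and genotype, whose parts cannot be told apart.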

How the results depend on the processing

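The counts of the 4 genes called in both pro-B to pre-B comparisons stayed at 4 under the alternatives run, except that 3 remained where a log2 fold change of at least 1.5 was also required. They stayed at 0 for *Sirt7*-/- against wild-type pro-B cells, K198Q against Pax5Wt in *Pax5*-/- cells and Pax5Wt against EV in *Sirt7*-/- cells. For the other comparisons the count depended on the setting, and the cause was not tested. DESeq2 on recovered reads called 3 of the 4 in *Sirt7*-/- against wild-type pre-B cells and 2 in the interaction, where limma and edgeR called 0. It called 728 genes in all in that pre-B comparison, against 15 by limma and 5 by edgeR. Calls over all genes moved as well. With no filter they were 260, 73, 1010 and 231 for Pax5Wt, K198Q and K198R against EV and K198R against Pax5Wt in *Pax5*-/- cells, with no variance trend 274, 81, 1049 and 291, and with only the groups compared 518, 83, 673 and 40, in place of 434, 123, 1324 and 383. For K198R against Pax5Wt in *Sirt7*-/- cells they were 16, 27 and 5 under these settings, in place of 58. In *Pax5*-/- cells the count for Pax5Wt against EV, 4 as reported, was 2 with no filter, 2 with no variance trend and 1 with that added fold threshold. For K198Q against EV, 2 as reported, it was 1 with no filter, 1 with no variance trend, 1 with only the groups compared in the fit and 1 with the added fold threshold. For K198R against EV the added threshold left 1 of 4. For K198R against Pax5Wt, 1 as reported, it was 0 with a pseudocount of 0.5, no filter, libraries rescaled to equal totals, no variance trend, only the groups compared and the added threshold. For K198R against K198Q it was 0 with the added threshold. In cultured *Sirt7*-/- cells the added threshold gave 0 for K198R against EV, and K198R against Pax5Wt, 1 as reported, gave 0 with no filter, no variance trend, only the groups compared and the added threshold.

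The replicate block by mouse, for the paired stage comparisons, changed no call of these genes. In the other tables, with the replicate number as a replicate block, the count was 4 for K198Q against EV in *Pax5*-/- cells, 1 for *Sirt7*-/- against wild-type EV (*Vpreb2*) and 2 for K198R against EV in *Sirt7*-/- cells. Genes called in all rose with it from 434 to 1343, 123 to 363 and 1324 to 2834 for Pax5Wt, K198Q and K198R against EV in *Pax5*-/- cells, from 3 to 29 for K198Q against Pax5Wt, 383 to 1004 for K198R against Pax5Wt and 668 to 1749 for K198R against K198Q there. In cultured cells they rose from 76 to 288 for *Sirt7*-/- against wild-type EV and, in *Sirt7*-/- cells, from 5 to 268 for Pax5Wt against EV, 659 to 1588 for K198R against EV and 58 to 314 for K198R against Pax5Wt. The number as a block changed no other call of the 4 genes.

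Leaving out 1 library at a time gave counts of 0 to 3 for *Sirt7*-/- against wild-type pre-B cells and 0 to 2 for the interaction. In *Pax5*-/- cells the counts ran from 1 to 3 for Pax5Wt, 1 to 2 for K198Q and 2 to 4 for K198R against EV, from 0 to 1 for K198R against K198Q, and stayed at 0 for K198R against Pax5Wt. In *Sirt7*-/- cells they ran from 0 to 1 for K198R against EV and stayed at 0 against Pax5Wt. Each of these fits left 1 library in a group, with the spread taken from the other groups. Small differences that were not called changed sign. Rescaling gave -0.026 for *Vpreb2* (K198R against Pax5Wt, *Pax5*-/-) and 0.023 for *Igll1* (Pax5Wt against EV, *Sirt7*-/-), and summing *Vpreb1* with *Vpreb2* gave -0.020 for K198R against EV in *Sirt7*-/- cells. With 1 library left out, K198R against Pax5Wt in *Pax5*-/- cells ran from -0.096 to 0.175 for *Vpreb1* and from -0.191 to 0.206 for *Vpreb2*. In cultured cells *Igll1* ran from -0.184 to 0.0085 for *Sirt7*-/- against wild-type EV and from -0.132 to 0.104 for Pax5Wt against EV. *Vpreb1* ran from -0.0051 to 0.0836 for K198R against EV. *Vpreb2* ran from -0.417 to 0.0095 for Pax5Wt against EV and from -0.430 to 0.037 for K198R against Pax5Wt. Regions with peaks in both replicates numbered 11 for wild-type Pax5, 5 for K198Q and 11 for K198R within 50 kb. Within 2 kb they numbered 5, 4 and 6. With 1 replicate list in place of both, regions within 10 kb numbered 8 to 11 for wild-type Pax5, 5 to 6 for K198Q and 7 to 11 for K198R. With 2 libraries a group the spread of each gene is poorly known, and a difference that was not called is not shown to be absent.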
